A study of Callithrix jacchus with 4 samples.

Results

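The genes described here are the ligands and receptors of axon guidance in primary visual cortex (V1) of the marmoset (Callithrix jacchus, a small New World monkey), counted in single nuclei 7 days after ischemic injury and in uninjured cortex. They were taken by symbol and not by any measured value, as every gene listed in both deposited tables whose symbol names a semaphorin (SEMA), plexin (PLXN), neuropilin (*NRP1*, *NRP2*), ephrin (EFNA, EFNB), Eph receptor (EPHA, EPHB), netrin or netrin-G (NTN, NTNG), netrin receptor (*DCC*, UNC5), SLIT or ROBO. The rule gave 61 of 16383 genes, namely 17 semaphorins, 7 plexins, 2 neuropilins, 7 ephrins, 13 Eph receptors, 2 netrins, 2 netrin-Gs, 5 netrin receptors, 2 SLITs, 3 ROBOs and *UNC50*, which shares the letters UNC5 but is not a netrin receptor. Of the 67 symbols that match in the injured table, 6 (*NTN3*, *NTN5*, *PLXNB2*, *SEMA3B*, *SEMA6C* and *UNC5CL*) were listed there with 0 UMIs and were not listed in the control table. The least counted member had 157 UMIs over all libraries and the median member 5481, so every member was detected.

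The injured cohort was 3 adult marmosets in which a local stroke had been caused in left V1 by endothelin-1, a vasoconstrictor peptide. Their V1 was dissected without the white matter after 7 days, and each animal gave 1 library (injured replicate 1 is F1619, replicate 2 is F1565 and replicate 3 is F1711). The control cohort was V1 of 3 adult marmosets without a lesion, pooled in 1 library, so that no spread between control animals was measured. In the injured animals the dissected tissue took in the core of the lesion and its penumbra, in proportions that the labels do not give. The protocol for nuclei, the sequencing facility and instrument and the removal of doublets differed between the cohorts and did not vary within one, so their effects cannot be told apart from that of the injury.

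Axon guidance molecules steer growing axons and migrating cells by attraction and repulsion, and many remain expressed in the adult brain, where they act at synapses, in myelin and in blood vessels. Semaphorins signal through plexins, with neuropilins as co-receptors for most secreted class 3 semaphorins. Ephrins are bound to the membrane and signal through Eph receptor tyrosine kinases on the facing cell, in both directions. Netrins act through *DCC* and UNC5 receptors, netrin-Gs are membrane-anchored relatives that work at synapses through other partners, and SLIT proteins repel through ROBO receptors.

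UMIs (unique molecular identifiers, tags that mark single captured transcripts) were summed over the nuclei of each library and each cell type that the authors annotated, which were excitatory neurons (ExN), inhibitory neurons (InN), astrocytes (Astro), oligodendrocyte precursor cells (OPC), oligodendrocytes (Oligo), microglia and endothelial cells (Endo). Levels are given as CPM (counts per 1000000), for which the UMIs of a gene were scaled to the UMIs of all genes in both tables in that library and cell type. The RNA is nuclear, and lengths of transcripts and introns were not used, so a level is compared between cell types and cohorts for 1 gene and not between genes. Injured replicates 1, 2 and 3 gave 7500, 12527 and 9510 nuclei and the control library 8610, with a median of 4504.5, 3531, 4229.5 and 2117 UMIs per nucleus. Control Endo, OPC and microglia were few, with 181, 171 and 129 nuclei at a median of 922, 962 and 793 UMIs, and the injured medians of these types lay between 1671 and 5628. Of the 32 listed markers used by the study, 31 were highest in their own cell type in each cohort. The exceptions were *GPR34*, which was highest in OPC in the injured cohort, and *FLT1*, which was highest in microglia in the control cohort. Any 2 libraries shared between 15 and 27 nucleus barcodes. Sums over a type do not tell fewer expressing nuclei from less RNA in each, nor a change in nuclei from a change in which nuclei carry the label.

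The first question was which cell types carried each ligand and receptor in the injured cortex. In each injured animal a cell type was compared with the mean of the 6 others, by edgeR's quasi-likelihood test on the sums with the animal as a block, and a member was called for a type at a Benjamini-Hochberg adjusted p (over all genes) below 0.01, a log2 difference over 1, and UMIs in 10% or more of the type's injured nuclei. Of the 61 members, 59 had enough counts to be tested (*EFNA2* and *EPHA1* had not). At least 1 type was called for 41 members, which gave 78 pairs of member and type. The neurons carried the most, with 23 of 59 tested members (39.0%) called for ExN against 10.1% of all 13659 genes tested, and 18 (30.5%) called for InN against 9.03% of all genes. OPC had 10 called members (16.9%, all genes 6.67%), Astro 8 (13.6%, all genes 7.42%) and Endo 8 (13.6%, all genes 7.96%). Microglia had 6 (10.2%, all genes 9.97%) and Oligo 5 (8.47%, all genes 6.27%), shares near those of all genes.

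Of the 41 members with a call, 11 had 1 type, 23 had 2 and 7 had 3. The neuron types shared 14 members, 9 were called for ExN and not InN, 4 for InN and not ExN, and 14 were called for other types alone. Receptors made up 14 of the 23 ExN calls and 13 of the 18 InN calls, and ligands 6 of the 10 OPC calls, with 29 ligands and 29 receptors tested. The control library, which was not in this test, was also higher in the called type than in the mean of the others for 74 of the 78 pairs. The 4 exceptions were *EPHA4* in Endo, *SEMA4A* and *NRP1* in microglia and *SEMA3C* in OPC, which all come up again in the comparison of the cohorts. The type with the highest level was the same in both cohorts for 34 of the 53 members with at least 50 control UMIs. The depth of nuclei differed between types, so nuclei were also thinned at random to 1000 UMIs, and those with fewer were left out. With these, 50 pairs were called. Of them 16 were in ExN and 11 in InN of 51 members tested, beside 652 and 593 of 11513 genes. Of the control nuclei, thinning left 362 of 594 Astro, 467 of 1122 Oligo, 80 of 171 OPC, 85 of 181 Endo and 37 of 129 microglia. This applies wherever values at 1000 UMIs per nucleus are given.

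**Figure D1:**
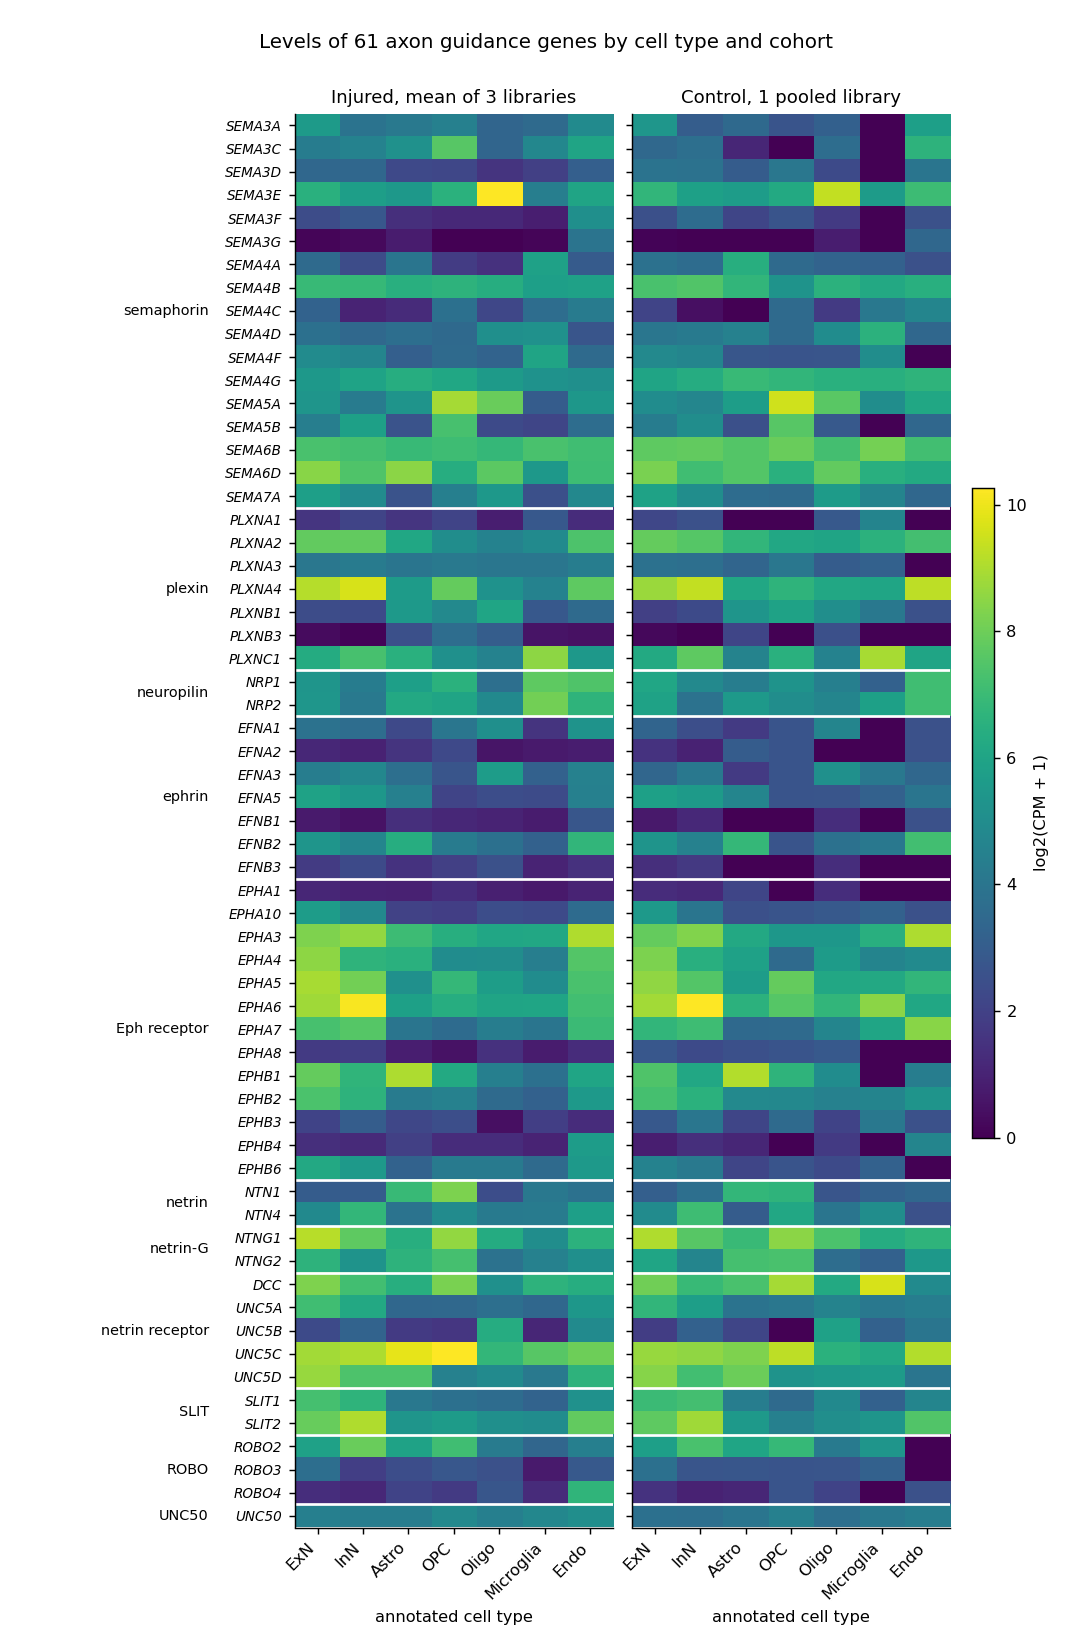
Levels of the 61 members as log2(CPM + 1) (colour) in each annotated cell type (columns), as the mean of the 3 injured libraries (left) and in the 1 control library (right), with rows grouped by family and a white line between families. *SEMA3E* is brightest in Oligo, *NRP2* in injured microglia, *EPHA6* in InN and *UNC5C* in injured OPC and Astro.

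Of the 17 semaphorins, which are secreted or membrane-bound and mostly repellent, 10 were called for a type, among them *SEMA3A* and *SEMA7A* for ExN alone and *SEMA3C*, *SEMA3E*, *SEMA4A* and *SEMA4D* for a single glial type. *SEMA3E*, a secreted ligand best known for its receptor *PLXND1* in vessels, was an oligodendrocyte gene in these nuclei. It stood at 1269, 1340.4 and 1095 CPM in Oligo of injured replicates 1, 2 and 3, against 639.6 in control Oligo, and no other type was above 94.3 CPM (OPC) in the injured mean. Its log2 difference from the other types was 4.62 ± 0.08 (SE), with an edgeR adjusted p of 1.73e-20. *SEMA5A*, a transmembrane semaphorin with thrombospondin repeats, marked the whole oligodendrocyte lineage. In OPC it was at 398, 600.0 and 417 CPM in the injured replicates and 733 in control, and in Oligo at 203, 267 and 265 and 197. Both types were called, with log2 differences of 3.67 ± 0.09 and 2.74 ± 0.09 (SE) and edgeR adjusted p values of 1.03e-17 and 5.65e-16.

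*SEMA5B*, its close relative, was called for OPC (log2 3.91 ± 0.16, edgeR adjusted p = 3.25e-14) and InN but not Oligo, where its mean was 3.88 CPM. In OPC it was at 155, 206 and 108 CPM in the injured replicates and 193 in control. *SEMA3C*, a secreted ligand of neuropilins, was called for OPC in the injured animals (log2 2.92 ± 0.25, edgeR adjusted p = 5.44e-09) and had no UMI in control OPC. Microglia carried *SEMA4A*, *SEMA4F* and *SEMA4D*, membrane-bound class 4 semaphorins of which *SEMA4A* and *SEMA4D* are known in immune cells. *SEMA4A* was at 59.4, 71.6 and 42.5 CPM in injured microglia and *SEMA4F* at 70.0, 58.3 and 61.5 CPM, with log2 differences of 3.47 ± 0.20 and 2.24 ± 0.10 (SE) and edgeR adjusted p values of 1.36e-12 and 2.04e-14. The semaphorin with the most UMIs, *SEMA6D*, a transmembrane ligand of *PLXNA1*, was called for Astro and ExN, at means of 357 ± 60.8 and 349 ± 30.0 CPM (SD, n = 3).

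Among the type A plexins, receptors of semaphorins, *PLXNA4* was called for both neuron types. It stood at 762, 897 and 771 CPM in InN and 556, 553 and 555 CPM in ExN of the injured replicates, with 645 and 422 in control, and was lowest in microglia at 22.7 ± 5.24 CPM (SD, n = 3). Its log2 difference in InN was 3.04 ± 0.08 (SE, edgeR adjusted p = 1.23e-17). *PLXNA2* was called for ExN, InN and Endo. *PLXNB1*, a receptor of *SEMA4D*, was instead glial and was called for Oligo, Astro and OPC. In the injured replicates it was at 63, 58.6 and 70.9 CPM in Oligo, at 52.5, 44.9 and 38.2 in Astro and at 27.2, 29.5 and 26.3 in OPC, so that every Oligo value was above every value of the other types. Its log2 differences in Oligo and Astro were 2.71 ± 0.15 and 2.06 ± 0.15 (SE), with edgeR adjusted p values of 2.64e-12 and 2.92e-10. *PLXNC1*, the receptor of *SEMA7A*, was called for microglia and InN. Injured microglia held 371, 276 and 468 CPM and control microglia 490.1, and the log2 difference was 2.71 ± 0.16 (SE, edgeR adjusted p = 1.98e-12).

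Both neuropilins were called for injured microglia, and *NRP1*, which is also a co-receptor of vascular endothelial growth factor, for Endo. *NRP2* was at 263, 257 and 283 CPM in microglia and *NRP1* at 152, 187 and 290.5 CPM, with log2 differences of 2.53 ± 0.14 and 2.18 ± 0.14 (SE) and edgeR adjusted p values of 5.69e-13 and 1.32e-11. In Endo *NRP1* was at 169, 126 and 219 CPM in the injured replicates and 137 in control (log2 1.72 ± 0.15, edgeR adjusted p = 3.71e-09). In injured replicate 3 *NRP1* was the highest of the 3 animals in both types.

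Of 12 tested Eph receptors 9 were called for ExN and 7 for InN, whereas 1 of 6 tested ephrins was called for each neuron type, *EFNA5* in both. *EPHA6*, the receptor with the most UMIs of its family, was at 1115, 1194 and 1185 CPM in InN and 383, 479 and 497 CPM in ExN. Its log2 difference in InN was 3.54 ± 0.11 (SE, edgeR adjusted p = 1.70e-16), and the control library was at 1219 CPM. *EPHA10*, a receptor that lacks kinase activity, and *EPHB2* were called for both neuron types and were highest in ExN, with log2 differences there of 3.11 ± 0.11 and 2.87 ± 0.10 (SE) and edgeR adjusted p values of 2.36e-15 and 1.69e-15. *EPHA10* was at 39.8, 35.4 and 77 CPM in ExN, so that injured replicate 3 was above the other animals, and *EPHB2* was at 171, 151 and 169.6 CPM. *EPHA7*, a receptor of A-type ephrins, was called for InN, ExN and Endo, and was at 225, 154 and 186 CPM in InN (log2 2.62 ± 0.12, edgeR adjusted p = 1.65e-13).

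*EPHB1* was the one Eph receptor called for Astro, and was called for ExN as well. It stood at 528, 533 and 474 CPM in Astro of the injured replicates and at 549 in control, a log2 difference of 3.27 ± 0.15 (SE, edgeR adjusted p = 7.76e-14), and the next highest type was ExN at 227 ± 39.6 CPM (SD, n = 3). *EFNB2*, a ligand of EPHB receptors that is a known marker of arterial endothelium, was called for Endo and Astro. Its levels were 88.6, 109.7 and 124 CPM in Endo and 95.2, 76.8 and 81.4 in Astro of the injured replicates and 142 and 114 in control, with log2 differences of 2.07 ± 0.12 and 1.85 ± 0.13 (SE) and edgeR adjusted p values of 7.68e-12 and 1.81e-10. *EPHA3* was called for Endo beside both neuron types, at 573, 454 and 579.6 CPM in injured and 519 in control Endo (log2 1.84 ± 0.18, edgeR adjusted p = 1.94e-08). *EFNA3*, a membrane-anchored ligand, was the ephrin of Oligo, at 48.5, 37.1 and 63.8 CPM (log2 1.97 ± 0.12, edgeR adjusted p = 2.00e-11).

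*NTN1*, the secreted ligand of *DCC* and UNC5 receptors, was glial. In OPC it stood at 329.9, 191 and 382 CPM in the injured replicates and 102 in control, and in Astro at 98, 137 and 122 and 109.8. In both neuron types its injured mean was at or below 7.03 CPM. The log2 differences were 4.45 ± 0.17 in OPC and 2.99 ± 0.18 in Astro (SE), with edgeR adjusted p values of 1.22e-14 and 1.13e-11. *NTN4*, a netrin of basement membranes and the one with more UMIs, was called for InN alone, at 109.9, 115 and 106 CPM. Netrin-G2 (*NTNG2*) was called for OPC, Astro and ExN, with 141, 208 and 106 CPM in OPC (log2 1.90 ± 0.21, edgeR adjusted p = 1.96e-07), and *NTNG1* for ExN and OPC, at means of 567 ± 105 and 386 ± 34 CPM (SD, n = 3).

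Among the netrin receptors, *UNC5A* was called for ExN and InN, *UNC5D* for ExN, InN and Astro, *UNC5C* for OPC and Astro, *DCC* for ExN and OPC, and *UNC5B* for Oligo alone. In ExN *UNC5A* was at 138, 129.6 and 149 CPM and *UNC5D* at 435, 431 and 383 CPM, with log2 differences of 3.01 ± 0.12 and 2.98 ± 0.11 (SE) and edgeR adjusted p values of 5.55e-15 and 1.69e-15. *UNC5B* was at 63.9, 75.1 and 104 CPM in Oligo of the injured replicates and 57.2 in control, a log2 difference of 4.36 ± 0.18 (SE, edgeR adjusted p = 1.30e-14), and its next highest type was Endo at 28.8 ± 6.18 CPM (SD, n = 3). *UNC5C* in Astro had a log2 difference of 1.51 ± 0.18 (SE, edgeR adjusted p = 3.78e-07). *UNC5C* levels in OPC (1162, 943 and 1600.1 CPM) and Astro (844, 1109.8 and 891 CPM) overlapped between animals.

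*SLIT1* and *SLIT2*, the secreted ligands of ROBO receptors, were both called for ExN and InN, and *SLIT2* also for Endo. *SLIT1* was at 125, 117 and 211 CPM in ExN (log2 2.93 ± 0.13, edgeR adjusted p = 7.81e-14), with injured replicate 3 above the others. *SLIT2* was at 570.1, 525 and 494 CPM in InN of the injured replicates and 452 in control (log2 2.99 ± 0.11, edgeR adjusted p = 6.39e-15). *ROBO2* was called for InN and OPC, at 269, 238 and 211 and 128, 119.9 and 171 CPM, with a log2 difference in InN of 2.81 ± 0.10 (SE, edgeR adjusted p = 8.48e-16). *ROBO4*, a receptor known in endothelium, was called for Endo alone, at 98.6, 101 and 117 CPM and at or below 5.72 CPM in every other type in the injured mean (log2 5.43 ± 0.13, edgeR adjusted p = 2.22e-18). *SEMA6B*, *SEMA4B*, *SEMA4G*, *PLXNA3* and *UNC50* were called for no type, and *SEMA6B* lay between 115 and 159.6 CPM in all 7. The other members with no call (*EFNA1*, *EFNB1*, *EFNB3*, *EPHA8*, *EPHB3*, *EPHB4*, *PLXNA1*, *PLXNB3*, *ROBO3*, *SEMA3D*, *SEMA3F*, *SEMA3G* and *SEMA4C*) had injured means of at most 50.1 CPM, the value of *EPHB4* in Endo.

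The second question was which members differed between injured and control nuclei of the same type. The sums of the 3 injured libraries were compared with the 1 control library in each type by edgeR's quasi-likelihood test, and the spread among injured animals stood in for that of the control. To be called, a member needed an adjusted p (Benjamini-Hochberg, over all genes) below 0.01, a natural-log fold change beyond 0.25 in size and UMIs in 10% or more of nuclei in 1 cohort at least. In simulated counts, scored by adjusted p and direction alone, this test called 0% of 2-fold changes in Astro and in microglia, and 44.4% and 12.9% of 4-fold changes. A member without a call may therefore still have changed. In all, 8 pairs of member and type were called. Astro had 2 of 52 tested members (3.85%) against 1.5% of all genes, Endo 4 of 55 (7.27%) against 6.18%, ExN 1 of 59 (1.69%) against 3.85% and InN 1 of 53 (1.89%) against 3.41%, so that the members' share was close to or under that of all genes except in Astro, where it rests on 2 genes. Microglia, Oligo and OPC had 0 calls by edgeR of 54, 52 and 48 tested members, against 0%, 0.774% and 0.0697% of all genes. In these 3 types 12, 12 and 13 members had an unadjusted p below 0.05, as did 21.2%, 30.8% and 19.9% of all genes, and DESeq2 called 3, 1 and 0 members, beside 318 of 13470, 204 of 11631 and 67 of 11476 genes in all. At an adjusted p below 0.05, 31 pairs were called, while all genes were called at 7.16% in Astro, 13.6% in Endo, 12.1% in ExN, 11% in InN, 2.58% in microglia, 4.32% in Oligo and 1.19% in OPC. The change in 1 type was also set against the mean change of the other types as an interaction, which called 2 members in Endo (3.38% of all genes), 2 in microglia (2.53%), 1 in OPC (0.19%) and 0 in Astro (0.528%), ExN (0.25%), InN (0.129%) and Oligo (0.305%). By edgeR 7, 11, 9 and 11 of 60 tested members had an unadjusted p below 0.05 in these last 4 types, as did 15.6%, 16.7%, 14.5% and 13.9% of all genes, and DESeq2 called 1, 1, 0 and 1, beside 169, 86, 65 and 94 of 14772 genes. At an adjusted p below 0.05 the interaction called 9 members in Endo (7.61% of all genes), 3 in microglia (5.04%), 2 in ExN (1.58%), 2 in Oligo (1.22%), 1 in Astro (2.51%), 1 in OPC (0.975%) and 0 in InN (0.67%). In Endo and microglia the median log2 change of all genes tested was itself 0.26 and 0.42. Only the neurons had over 3 control UMIs for every tested member, and there the median log2 change of the members was 0.23 in ExN (41 of 59 above 0) and 0.25 in InN (35 of 53 above 0), beside 0.00 for all genes in both (50.3% and 50.2% above 0). In Endo the members' median was also above that of all genes, at 0.53 (38 of 55 above 0) beside 0.26 (57.7% above 0). In Astro, Oligo, OPC and microglia the members' median was -0.05, -0.02, 0.21 and -0.54, beside 0.05, 0.02, 0.17 and 0.42 for all genes. These medians are a description and were not tested.

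**Figure D2:**
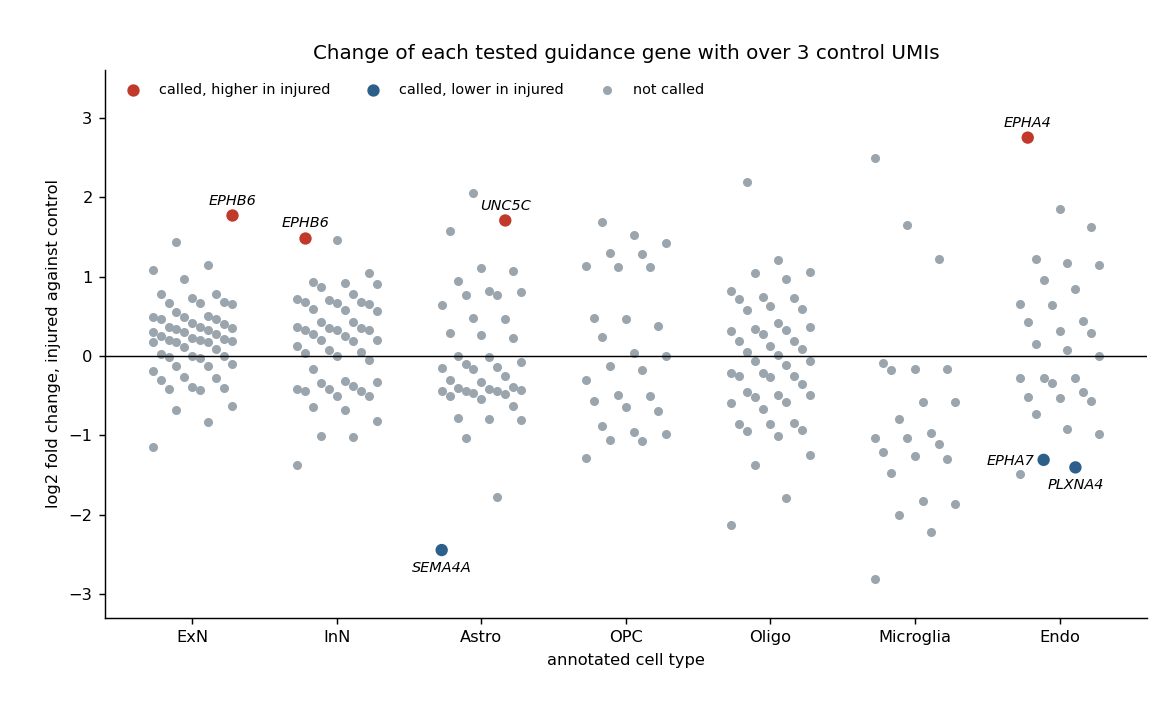
log2 fold change of injured against control (vertical axis) for each tested member with over 3 control UMIs in each cell type (horizontal axis, points spread sideways only to be seen), with called members in red (higher in injured) and blue (lower). Members with 3 or fewer control UMIs are left out, which leaves 59, 53, 44, 28, 50, 23 and 31 points from ExN to Endo, and *ROBO4* in Endo, with 1 control UMI, is therefore not shown.

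In astrocytes the netrin receptor *UNC5C* rose and the semaphorin *SEMA4A* fell. *UNC5C* stood at 844, 1109.8 and 891 CPM in injured replicates 1, 2 and 3 and at 313 in control. Each injured library was above the control, by a log2 fold change of 1.71 ± 0.25 (SE, edgeR adjusted p = 0.00723). The share of astrocytes with a *UNC5C* UMI was 73.3% ± 2.55 in injured animals (SD, n = 3) and 31.6% (27.9 to 35.6%) in control (exact 95% interval, which covers counting error only), at medians of 5279.5, 2903 and 4666 and 1183 UMIs per nucleus. Leaving out nuclei with under 1000 UMIs kept 398 of 402, 896 of 919 and 777 of 786 injured astrocytes and 362 of 594 control ones. At 1000 UMIs per nucleus the shares among these were 45.4% ± 6.87 and 26.2%. In Oligo, where the gene was lowest and a change could hardly show, they were 8.97% ± 0.829 and 7.71%. As an interaction, *UNC5C* in Astro was not called against the mean change of the other types at an adjusted p below 0.01 or 0.05. A rise particular to Astro was therefore not shown.

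*SEMA4A* was at 16.4, 18.9 and 9.68 CPM in injured astrocytes and 86.7 in control, a log2 fold change of -2.45 ± 0.35 (SE, edgeR adjusted p = 0.007), and all 3 injured libraries were below the control. The share of astrocytes with a UMI was 5.57% ± 1.2 in injured and 10.8% (8.4 to 13.5%) in control, or 1.28% ± 1.02 and 7.18% at 1000 UMIs per nucleus, and in Oligo, where it was lowest, in 0.0481% ± 0.0833 and 0.642%. In microglia its levels stood the other way, at 59.4, 71.6 and 42.5 CPM in injured and 8.03 (1 UMI) in control, which was not called. Both astrocyte calls were lost without injured replicate 1, at edgeR adjusted p values of 0.0142 for *UNC5C* and 0.0144 for *SEMA4A*, with log2 fold changes of 1.80 and -2.50. *UNC5C* was also not called with nuclei of at most 2500 genes (log2 1.38, edgeR adjusted p = 0.0372), nor *SEMA4A* at 1000 UMIs per nucleus (edgeR adjusted p = 0.0197).

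Beyond the calls, *SEMA3C* had an edgeR adjusted p of 0.00998 in Astro but UMIs in under 10% of the nuclei. It was at 31.4, 29.2 and 45.3 CPM in the injured replicates, and the 1 control UMI gave a ratio of 31.7 with a counting interval of 5.65 to 1255.7. *SEMA6D* (log2 1.07 ± 0.25, edgeR adjusted p = 0.0354) and *PLXNC1* (log2 2.06 ± 0.54, edgeR adjusted p = 0.0496) passed the limit of 0.05 and not that of 0.01 by edgeR on all libraries. *PLXNC1* was called by DESeq2 and without injured replicate 3, and both were called without injured replicate 2.

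**Figure D3:**
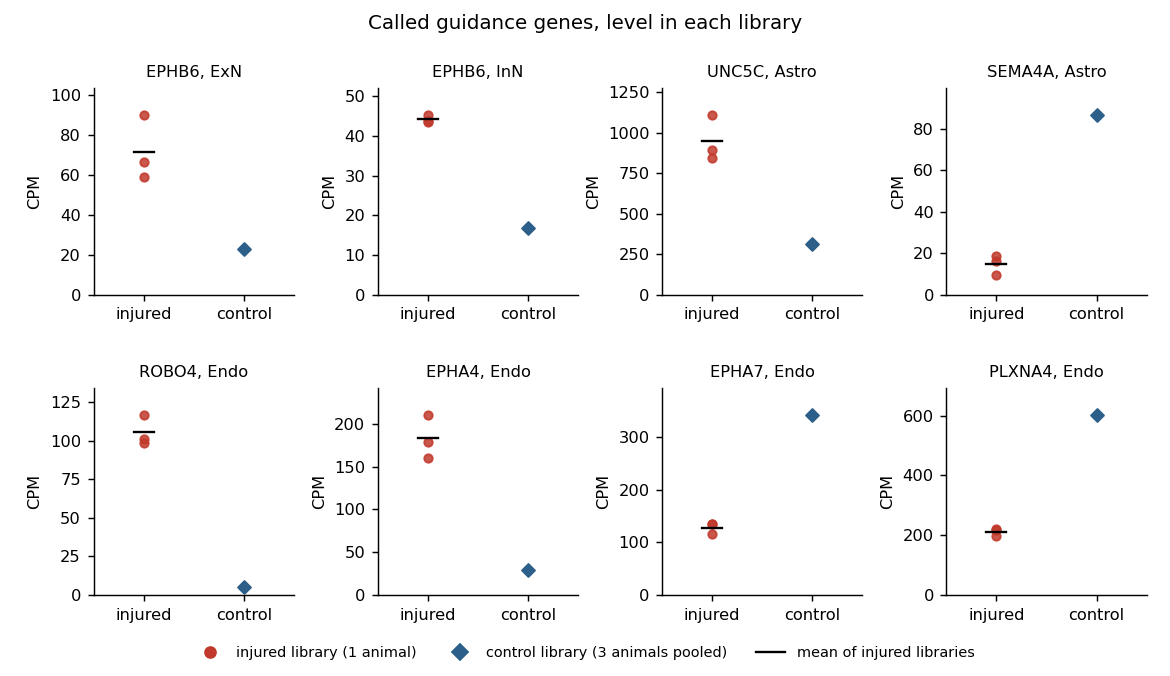
CPM (vertical axis, from 0) in each of the 3 injured libraries (red points, black line at their mean) and the 1 control library (blue diamond) for the 8 called pairs of member and cell type. In every panel the 3 injured libraries lie on 1 side of the control, which is a single library of 3 pooled animals. The panels were picked by the call, which itself favours such a separation.

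In neurons the receptor *EPHB6*, a member of the EPHB group without kinase activity, rose in both types. In ExN it stood at 66.3, 58.8 and 90.1 CPM in the injured replicates and 22.7 in control, and in InN at 45.3, 43.9 and 43.7 and 16.9. No injured library reached down to the control in either type. The log2 fold changes were 1.77 ± 0.27 in ExN and 1.49 ± 0.22 in InN (SE), with edgeR adjusted p values of 0.0069 and 0.00251. The share of ExN with a UMI was 33.5% ± 6.58 in injured and 6.87% (6.21 to 7.58%) in control, and at 1000 UMIs per nucleus 7.25% ± 1.6 and 2.47%, both under the 10% asked for a call (microglia, a type with little of it, had 1.43% ± 0.671 and 0%), so that *EPHB6* in ExN was not called there at an edgeR adjusted p of 0.00143. In ExN with a *CUX2* UMI and no *FOXP2* UMI, an upper-layer subset, the log2 fold change was 1.86 (edgeR adjusted p = 0.00572). Without injured replicate 1 the ExN call was lost (edgeR adjusted p = 0.0328). It was also lost with scaling by library size alone (log2 1.66, edgeR adjusted p = 0.0103). In InN the call was lost at 1000 UMIs per nucleus (log2 1.32, edgeR adjusted p = 0.0135).

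In the other types *EPHB6* was not called. In Astro, microglia and OPC it had 3, 1 and 1 control UMIs, with ratios of 2.47 (counting interval 0.814 to 12.2), 1.27 (0.226 to 50.4) and 3.27 (0.572 to 131). In Endo it was at 49.7, 35.8 and 48.1 CPM in the injured replicates and had 0 UMIs in control, which makes it at least 2.98-fold higher against 3 UMIs over the control cohort. In Oligo it was at 11, 15.6 and 25 CPM and 3.91 in control (log2 2.19 ± 0.74, edgeR adjusted p = 0.1). Whether the rise in ExN or InN differed from that in the other types is not given, since the mean change of those types takes in Endo, with 0 control UMIs.

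By edgeR on all libraries, other members of the neuron types passed the limit of 0.05 and not that of 0.01. In ExN these were *EPHA7* (log2 0.66 ± 0.12, edgeR adjusted p = 0.0105), *UNC50*, *PLXNA4*, *EFNA3*, *EPHA3* and *UNC5A*, all higher in injured, and *NRP1* (log2 -0.63 ± 0.16, edgeR adjusted p = 0.0352), which was lower. *PLXNA4* in ExN was at 556, 553 and 555 CPM against 422 (log2 0.51 ± 0.11, edgeR adjusted p = 0.0235). *UNC50* was at 20.4, 20.5 and 20.9 CPM against 12.9, and *EFNA3* at 15.6, 18.1 and 24.1 against 9.48. In InN they were *EPHA5* (log2 0.67 ± 0.14, edgeR adjusted p = 0.0128), *ROBO2* (log2 0.68 ± 0.17, edgeR adjusted p = 0.0224) and *UNC5C* (log2 0.57 ± 0.15, edgeR adjusted p = 0.0304), which were higher, and *SEMA6B* and *SEMA4B*, which were lower. At the limit of 0.01, DESeq2 called *EPHA7*, *PLXNA4*, *UNC50*, *EPHA3* and *EFNA3* in ExN and *EPHA5* in InN, beside 1193 of 15122 and 486 of 12984 genes in all. Without injured replicate 2 edgeR called *EPHA7*, *NRP1* and *EPHA3* in ExN and 12 members in InN, *EPHB6* among them, beside 885 of 15052 and 1499 of 12607 genes. Without replicate 3 it called *EPHA7* in ExN. *SEMA6B* in InN was at 159, 139 and 141 CPM against 223 (log2 -0.51 ± 0.14, edgeR adjusted p = 0.0346).

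In the Endo annotation *ROBO4* and *EPHA4* rose and *PLXNA4* and *EPHA7* fell. *ROBO4* was at 98.6, 101 and 117 CPM in the injured replicates and had 1 UMI (4.9 CPM) in control, a ratio of 21.8 with a counting interval of 3.91 to 863, and the fitted log2 fold change was 4.53 ± 0.62 (SE, edgeR adjusted p = 0.00226). *EPHA4*, a receptor of both ephrin classes, was at 179, 210.4 and 160.4 CPM against 29.4 (6 UMIs), a log2 fold change of 2.75 ± 0.43 (SE, edgeR adjusted p = 0.00371). *PLXNA4* was at 196, 216 and 219.9 CPM against 603, and *EPHA7* at 134, 134 and 116 against 343. Their log2 fold changes were -1.41 ± 0.21 and -1.31 ± 0.22 (SE), with edgeR adjusted p values of 0.00287 and 0.00483. For all 4 genes the 3 injured libraries lay together and apart from the control, a separation that picking genes by the call favours. The *ROBO4* call was lost by DESeq2 (adjusted p = 0.0217) and at 1000 UMIs per nucleus (edgeR adjusted p = 0.0438), and that of *EPHA7* without injured replicate 1, at 1000 UMIs per nucleus and with nuclei of at most 2500 genes (edgeR adjusted p = 0.0124, 0.159 and 0.0137).

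The nuclei under this label differed in their markers between the cohorts. *LAMA2*, a laminin gene of fibroblasts and mural cells, had a UMI in 119 of 181 control Endo nuclei (65.7%, exact 95% interval 58.3 to 72.6%) and in 16%, 22% and 22.1% of those of injured replicates 1, 2 and 3, at 4204 CPM against 677, 579 and 638. The endothelial markers *FLT1* and *SLC2A1* stood at 299 and 142 CPM in control, against 850.2, 1209 and 1393 and 836, 1029.9 and 952 in the injured replicates. Vessel genes did not all stand this way. *IGFBP7* and *ROBO4* were also lower in control. *EFNB2* and *KDR*, a receptor of vascular endothelial growth factor, were higher in control than in each injured library. *NRP1* in control lay within the injured range. The 5 listed fibroblast markers, *LAMA2* among them, summed to 5330.9 CPM in control and 1218.1 to 2163.8 in injured Endo. *LAMA2* made up most of the control sum, so that this sum is not a measure apart from *LAMA2*. Without *LAMA2*, the control sum of the other fibroblast markers lay within the range of the injured sums. Of these, *DCN* was higher in control, at 622 CPM against 361, 251 and 375. The 4 listed mural markers were lower in control, at 181 against 723 to 1086, and no marker of either list was at 0. The Endo values were therefore also taken in nuclei with and without a *LAMA2* UMI (119 and 62 control nuclei), a split made after the data were seen.

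In nuclei without a *LAMA2* UMI, *EPHA7* was at 63, 81.2 and 57.4 CPM in the injured replicates and 70.0 (4 UMIs) in control, so that the control lay within the injured range (fitted log2 0.23, edgeR adjusted p = 0.851). With a *LAMA2* UMI it was at 303, 236 and 217 and 449 CPM (log2 -0.72, edgeR adjusted p = 0.111). *PLXNA4* was lower in injured on both sides of the split, at 203, 231 and 200.1 against 753 CPM without *LAMA2* and 177, 187 and 254 against 544 with it. Its edgeR adjusted p values were 0.019 and 0.0167, which miss the limit of 0.01. *EPHA4* was at 209.9, 267 and 214 against 52.5 CPM without *LAMA2* and 106, 102 and 68.5 against 20.4 with it, on 3 control UMIs each (edgeR adjusted p = 0.0515 and 0.0473). *ROBO4* was at 105, 103 and 138 CPM without *LAMA2*, beside 1 control UMI (edgeR adjusted p = 0.0936), and at 83, 97.9 and 80.3 with it, beside 0 control UMIs (edgeR adjusted p = 0.00436). Among the 38 control nuclei with no UMI of any mural or fibroblast marker, none of the 4 genes was called, and the fitted log2 fold changes were 1.72 for *ROBO4*, 2.07 for *EPHA4*, -0.38 for *PLXNA4* and 2.06 for *EPHA7* (edgeR adjusted p = 0.393, 0.0888, 0.565 and 0.273). Over all genes tested the median was 0.94 in that subset and 0.80 in nuclei without a *LAMA2* UMI, beside 0.26 in the whole of Endo.

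Genes that were called for Endo against other types also fell on unlike sides of the split. *EPHA3* had 104 control UMIs in nuclei with a *LAMA2* UMI and 2 in those without (708 and 35 CPM), beside 757, 653 and 749.6 CPM with it and 495, 351 and 480.1 without it in the injured replicates. *SLIT2* went the other way in control, at 27.2 CPM with a *LAMA2* UMI and 560.4 without one, beside 218, 131 and 391 and 236, 207 and 177 in the injured replicates. These values are a description and were not tested.

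**Figure D4:**
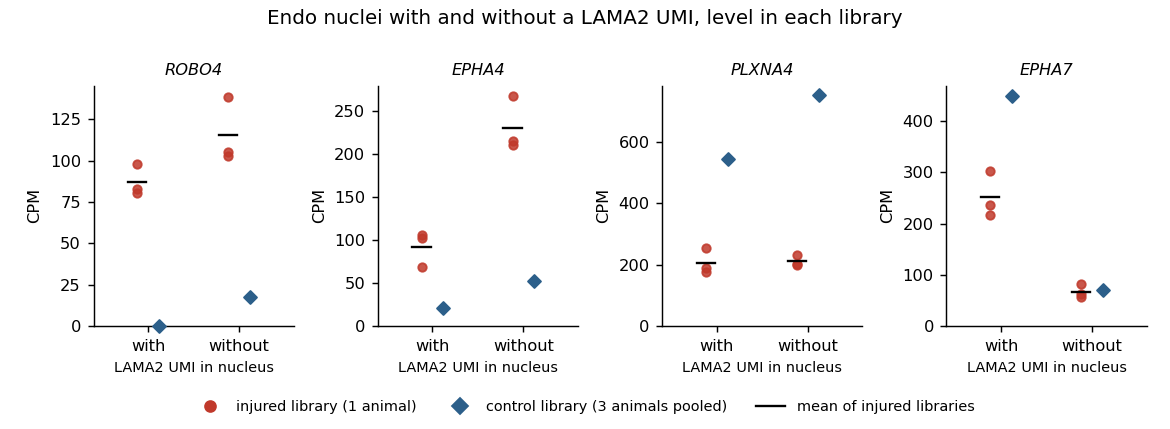
CPM (vertical axis, from 0) of the 4 called members in Endo nuclei with and without a *LAMA2* UMI (horizontal axis), in the 3 injured libraries (red points, black line at their mean) and the 1 control library (blue diamond, 119 nuclei with and 62 without a *LAMA2* UMI). The control of *EPHA7* without *LAMA2* lies among the injured libraries, and that of *PLXNA4* above them on both sides.

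In OPC the secreted semaphorin *SEMA3C* was present in every injured animal and had no UMI in control OPC. It stood at 188, 155 and 231 CPM in injured replicates 1, 2 and 3 (305, 237 and 475 UMIs) beside 0 UMIs in control, which makes it at least 12.2-fold higher against 3 UMIs over the control cohort. The edgeR adjusted p of 0.0203 missed the limit of 0.01, and the gene was called without a filter on low counts, with nuclei of at most 2500 genes, and without injured replicate 2 or 3. A *SEMA3C* UMI was found in 29.1% ± 8.47 of injured OPC (SD, n = 3) and in 0 of 171 control OPC, which allows a share of up to 1.75% (3 nuclei of 171) with a UMI at the control median of 962 UMIs per nucleus, against 5628, 2912 and 4981 in the injured replicates. At 1000 UMIs per nucleus the injured share was 11% ± 2.9, and in Oligo, where the gene was lowest, 0.754% ± 0.604 in injured and 0.642% in control. In control Endo the same gene was at 98 CPM, above the 47.7, 61.8 and 77.7 CPM of the injured replicates, so that the control library did hold *SEMA3C* transcripts. Other OPC differences were further from the limit, among them *PLXNA4* (219, 259 and 200.3 CPM against 102, edgeR adjusted p = 0.0872), *NTN1* (log2 1.69 ± 0.49, edgeR adjusted p = 0.131), *UNC5C* (log2 1.13 ± 0.33, edgeR adjusted p = 0.125) and *EPHA5* (log2 -0.89 ± 0.25, edgeR adjusted p = 0.115). Without injured replicate 2, the shallowest of the injured libraries per nucleus, 10 members were called in OPC, among them *SEMA3C*, *NTN1*, *UNC5C*, *PLXNA4* and *EPHA5*, beside 808 of 11306 genes in all.

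In oligodendrocytes *SEMA3E* was at 1269, 1340.4 and 1095 CPM in the injured replicates and 639.6 in control, with every injured library above it. The log2 fold change was 1.05 ± 0.17 (SE) at an edgeR adjusted p of 0.0166, and the share of Oligo with a UMI was 76% ± 3.0 in injured and 43.5% (40.6 to 46.5%) in control, or 57.2% ± 2.16 and 37.7% at 1000 UMIs per nucleus, where Astro, a type with little of it, had 2.81% ± 0.736 and 3.04%. *SEMA3E* was called by DESeq2, without a filter on low counts, without injured replicate 3 and at 1000 UMIs per nucleus. *PLXNB1* (log2 1.06 ± 0.26, edgeR adjusted p = 0.0466) was higher and *NTNG1* (log2 -0.94 ± 0.22, edgeR adjusted p = 0.0411) lower at the limit of 0.05 alone. *DCC* (log2 -1.01 ± 0.23, edgeR adjusted p = 0.0416) had UMIs in under 10% of Oligo in both cohorts, and *PLXNA2* (log2 -1.38 ± 0.37, edgeR adjusted p = 0.0581) missed that limit.

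**Figure D5:**
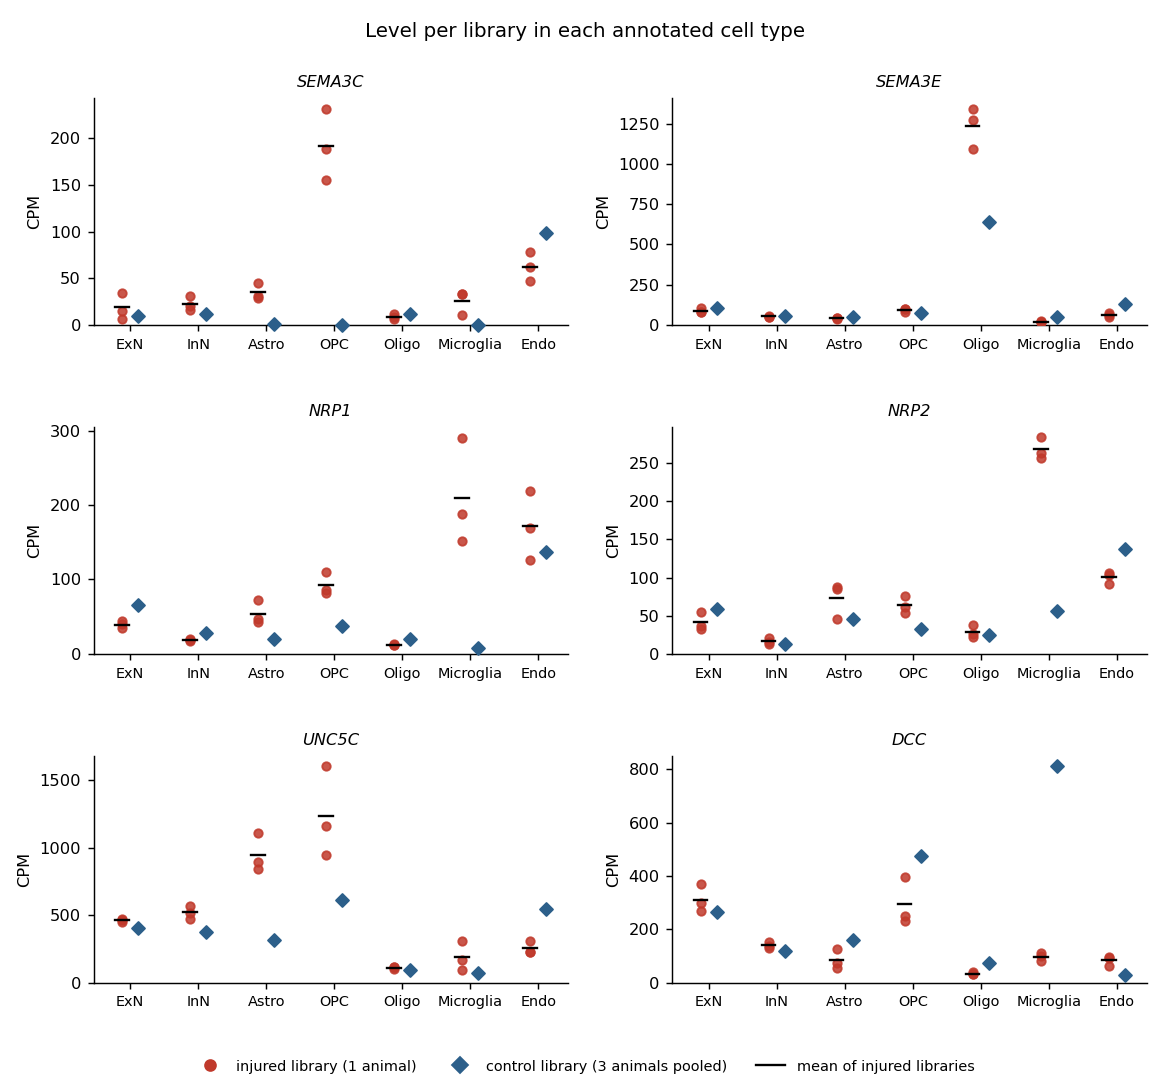
CPM (vertical axis, from 0, a scale for each gene) of 6 members in each annotated cell type (horizontal axis), in the 3 injured libraries (red points, black line at their mean) and the 1 control library (blue diamond). *SEMA3C* is at 0 in control OPC and microglia, *NRP1* and *NRP2* are higher in injured than in control microglia, and *DCC* is at 811 CPM in control microglia.

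Microglia had the fewest control nuclei. No gene was called there by edgeR, and DESeq2 called *NRP2*, *DCC* and *EPHA6* among the members. *NRP2* stood at 263, 257 and 283 CPM in the injured replicates and 56.2 (7 UMIs) in control, a log2 fold change of 2.49 ± 0.26 (SE, edgeR adjusted p = 0.0302). *NRP1* was at 152, 187 and 290.5 CPM beside 1 control UMI, a ratio of 25.1 with a counting interval of 4.51 to 993 (edgeR adjusted p = 0.0793). For both neuropilins all 3 injured libraries were above the control. The share of microglia with an *NRP2* UMI was 41.8% ± 5.09 in injured and 3.88% (1.27 to 8.81%) in control. At 1000 UMIs per nucleus, which left 37 of 129 control microglia, it was 19.1% ± 0.804 and 5.41%. There InN, the type with the least *NRP2*, had 1.49% ± 0.523 and 1.63%. Without injured replicate 2 both *NRP2* and *DCC* were called in microglia (edgeR adjusted p = 0.00382 and 0.00105), beside 395 of 13348 genes.

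*DCC* stood the other way, at 80.6, 111 and 102 CPM in injured and 811 in control microglia, a log2 fold change of -2.81 ± 0.24 (SE, edgeR adjusted p = 0.0223). The 101 control UMIs came from 56 of the 129 nuclei, or 43.4% (34.7 to 52.4%), with at most 4 in 1 nucleus, and *DCC* was found in 43.5% of control microglia with a UMI of the microglial gene *DOCK8* and 43.2% of those without. In the other control types the share lay between 3.31% (1.23 to 7.08%) in Endo and 45.8% (44.5 to 47.2%) in ExN, at medians of 922 and 2678 UMIs per nucleus. *EPHA6* (47.7, 78.7 and 70.6 against 362 CPM, edgeR adjusted p = 0.0592) and *PLXNA2* (26, 32.3 and 29.7 against 96.4 CPM, edgeR adjusted p = 0.0998) also had control levels above all 3 injured libraries.

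Some markers of other cells and of microglia also differed between the cohorts, and some did not. The neuronal marker *SYT1* was at 442 CPM in control microglia and 151, 262 and 208 in the injured replicates. The 6 markers of peripheral macrophages summed to 868 CPM in control and 1837.4 to 3242.6 in injured microglia, with none at 0. Of these, *F13A1* was at 410 CPM in control and 1644, 879 and 1572 in injured. *MRC1*, at 297 in control, lay within the injured values of 328, 105 and 252. *CD74*, a gene of antigen presentation, was at 8.03 CPM in control and 1014, 1429 and 1197 in injured, whereas *GPR34* was at 289 and 34, 20.5 and 40.0. The microglia markers *DOCK8* and *P2RY12* differed less, at 1253 and 1248, 1167 and 1100, and at 233 and 173, 117 and 182. The 5 fibroblast markers summed to 281 CPM in control, where *COL1A2* and *COL3A1* were at 0, and 36.5 to 77.3 in injured microglia. The 5 lymphocyte markers summed to 80.3 CPM in control, where 3 were at 0, and 186 to 243 in injured microglia. The part of these in the neuropilin and *DCC* values was not tested. In microglia with no UMI of a macrophage or lymphocyte marker *NRP2* had a log2 fold change of 3.40 (edgeR adjusted p = 0.0331) and *DCC* of -2.38 (edgeR adjusted p = 0.0131). These were 266 of 2823, 463 of 2692 and 253 of 2218 injured nuclei, at medians of 1781.5, 1374 and 1727 UMIs. The control kept 103 of 129, at a median of 766. At such depths a macrophage or lymphocyte nucleus can lack these UMIs, so the subset may still hold such cells.

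Other genes of the pathway were read from a list of 60 ligands, co-receptors and intracellular effectors, 52 of them in both tables. In injured against control, 1 of 49 tested was called in Astro (*TRIO*, a guanine nucleotide exchange factor, at 921, 1110.5 and 915 against 369.9 CPM), 4 of 50 in Endo and 1 of 47 in Oligo, or 2.04%, 8% and 2.13% beside 1.5%, 6.18% and 0.774% of all genes. The Endo genes were *RRAS*, *NRCAM* and *DSCAM*, which were higher, and *KDR*, a receptor of vascular endothelial growth factor, which was lower at 146, 199 and 164 against 534 CPM (log2 -1.54 ± 0.24, edgeR adjusted p = 0.00406). The Oligo gene was *DSCAML1*, an adhesion molecule, which was lower at 73.6, 74.7 and 50.7 against 408 CPM (edgeR adjusted p = 0.00235). ExN, InN, microglia and OPC had 0 calls by edgeR, with 13, 11, 12 and 18 of the list at an unadjusted p below 0.05, as were 40.2%, 34.8%, 21.2% and 19.9% of all genes. By cell type, 19 of 51 tested (37.3%) were called for ExN, 14 (27.5%) for InN, 15 (29.4%) for OPC, 13 (25.5%) for Astro, 7 (13.7%) for Oligo, 6 (11.8%) for microglia and 5 (9.8%) for Endo. Of all genes 10.1%, 9.03%, 6.67%, 7.42%, 6.27%, 9.97% and 7.96% were called for these types in the same order, so that the shares in microglia and Endo were near the background.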

How the data were processed

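Single-nuclei RNA sequencing on the 10x platform was made of V1 nuclei from 3 injured marmosets (1 library each) and 3 uninjured marmosets (1 pooled library). Reads were aligned by the authors to calJac3 (Ensembl genes) and counted as UMIs by Cell Ranger 3.1.0. Scrublet was run on the injured cohort to take out doublets, a limit on detected genes was set in Seurat for control nuclei, and cell types were annotated. The deposited counts are whole UMIs for each gene in each nucleus, not normalized, and every nucleus with its annotation was used. Injured replicates are numbered in accession order.

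For the 16383 genes in both tables, UMIs were added up by library and annotated type. The sums were tested in R 4.3.3 by edgeR 4.0.16 (filterByExpr, TMM, glmQLFit, glmQLFTest), with Benjamini-Hochberg adjustment over all genes tested in a cell type. Fits were made for injured against control, for a cell type against the mean of the others in injured libraries (animal as a block), and for the interaction of cell type and cohort (library as a block). With 1 control library its spread is assumed. The SE of an edgeR log2 value is its size divided by the square root of the test's F statistic. It is derived from the test, not estimated apart from it, and can understate the uncertainty of a few control UMIs. The steps were run on simulated counts with known changes. These gave every gene the same dispersion and changed only a small part of the genes. A call there needed the adjusted p below 0.01 and the right direction, without the limits on fold change and share of nuclei. The shares called in these data may therefore differ. Of 2-fold changes, injured against control called 0% in Astro and in microglia, and of 4-fold changes 44.4% and 12.9%. For Astro, the comparison of cell types called 71.6% of 2-fold and 97.6% of 4-fold changes, and the interaction 3.12% and 24.7%. An absent call between cohorts or in the interaction therefore does not show that a gene was unchanged. Fold changes against 0 control UMIs are bounds at 3 UMIs over the control cohort, and those on 1 to 3 UMIs are ratios with exact 95% counting intervals. A share of 0 is given with the limit that 3 nuclei would set. Other shares of nuclei have exact (Clopper-Pearson) 95% binomial intervals. Sums and intervals were computed in Python 3.11.15 (scipy 1.17.1, pandas 2.3.3, numpy 2.4.6).

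Genes named are members called in any comparison, the 5 with the smallest p in each cell type between cohorts, the 5 with the largest difference in each cell type among those called, and in each family the 1 with the most UMIs. *SEMA3A*, *SEMA4D*, *SEMA7A*, *PLXNA2* and *SLIT2* beyond those, *NTNG1* in OPC, *EPHA3* and *UNC5A* in ExN, *SEMA4B* in InN, *EFNA5* and the members listed as not called were named beside these after their values were seen. So were *LAMA2*, *DOCK8*, *P2RY12*, *CD74*, *SYT1*, *F13A1* and *MRC1*. The members, lists and tests were chosen with earlier results of these data known. The alternatives were an adjusted p limit of 0.05, DESeq2 1.42.0, scaling by library size alone or RLE factors, no low-count filter, thinning to 1000 UMIs per nucleus, nuclei of at most 2500 genes, leaving out each injured animal, marker-defined subsets of nuclei, no block and all 4 libraries in the comparison of cell types. Nuclei with under 1000 UMIs were left out of the thinned fits and shares. The split by *LAMA2* was chosen after seeing the data.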

Additional observations from a re-analysis of the deposited data

Results flagged for a closer look

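For 5 pairs of member and cell type, which hold 4 members, the change between cohorts in that type differed from the mean change of the 6 other types, tested as an interaction over all 4 libraries (edgeR, Benjamini-Hochberg adjusted p below 0.01, absolute natural-log difference above 0.25). The calls were 2 of 60 tested members (3.33%) in Endo, 2 (3.33%) in microglia and 1 (1.67%) in OPC, shares that stand beside 3.38%, 2.53% and 0.19% of all genes.

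*PLXNA4* differed in Endo and in OPC, with changes of opposite direction relative to the other types. In Endo the difference was -1.35 ± 0.23 on the log2 scale (SE, edgeR adjusted p = 7.30e-04), and in OPC 1.83 ± 0.32 (SE, edgeR adjusted p = 0.00907). All 3 injured libraries were below the control in Endo (196, 216 and 219.9 against 603 CPM) and above it in OPC (219, 259 and 200.3 against 102 CPM, 19 control UMIs). The Endo difference was called under each scaling, filter, depth, tool and left-out animal. With the Endo sums taken from nuclei without a *LAMA2* UMI it was also called (log2 -1.37, edgeR adjusted p = 0.00721), and from nuclei with one, which were 65.7% of the control and 16% to 22.1% of the injured Endo nuclei, it was not (log2 -1.25, edgeR adjusted p = 0.0136). Nor was it called in nuclei without mural and fibroblast marker UMIs (log2 -0.25, edgeR adjusted p = 1.0), where the median of this difference over all genes was 2.16, against 0.02 in all Endo nuclei. The OPC difference was not called without any 1 of the injured animals (edgeR adjusted p = 0.0511, 0.0147 and 0.0577) nor with RLE factors (0.0127) or at 1000 UMIs per nucleus (0.294). It was also not called with the Endo sums from nuclei without mural and fibroblast marker UMIs or with a *LAMA2* UMI, nor with microglia without peripheral macrophage and lymphocyte marker UMIs.

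*UNC5D* in Endo was higher relative to the other types by 3.19 ± 0.72 on the log2 scale (SE, edgeR adjusted p = 0.00781). It was at 107, 120.4 and 70.0 CPM in the injured replicates and 14.7 in control, on 3 control UMIs, which gives a ratio of 6.62 with a counting interval of 2.26 to 32.1. All 3 control UMIs were in nuclei with a *LAMA2* UMI, and the injured level was 131, 169.8 and 102 CPM in nuclei without one and 52.1, 24.8 and 15.4 in those with one. Its call was lost with RLE factors (edgeR adjusted p = 0.0101), without injured replicate 2 (0.0462) and without replicate 3 (0.0102), and in each of the 3 subsets of Endo nuclei (0.0278, 0.897 and 0.0266).

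*DCC* in microglia was lower relative to the other types, with a difference of -2.75 ± 0.36 on the log2 scale (SE, edgeR adjusted p = 4.41e-05) and was called under each alternative run. *EPHA6* in microglia had a difference of -2.03 ± 0.40 (SE, edgeR adjusted p = 0.00309), at 47.7, 78.7 and 70.6 CPM in the injured replicates and 362 in control, where 45 UMIs lay in 29 of 129 nuclei. Its call was lost without injured replicate 2 (edgeR adjusted p = 0.0303), at 1000 UMIs per nucleus (0.0499), which left 37 control microglia, and in microglia without peripheral macrophage and lymphocyte marker UMIs (0.292). The neuronal marker *SYT1* had 55 UMIs in 20 control microglia, up to 17 in 1 nucleus, and its part in these values was not tested.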

How the results depend on the processing

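No paired analysis between cohorts was possible, because the control animals were pooled. The paper's methods describe the injured and uninjured marmosets as separate animals, while a supplementary legend labels contralateral V1 as the control. In the comparison of cell types within animals, the fit without the animal as a block called 78 pairs, as the fit with it did. Of the 8 pairs called between cohorts, the count moved to 31 at an adjusted p below 0.05, 18 by DESeq2 and 4 at 1000 UMIs per nucleus. With Endo nuclei without mural and fibroblast marker UMIs, with a *LAMA2* UMI and without one it was 4, 5 and 4. Leaving out 1 injured animal gave 4 to 39 calls, with 4 without injured replicate 1, 39 without replicate 2 and 14 without replicate 3, beside 980, 6041 and 3436 calls over all genes and types (2126 with all animals). The other settings gave 7 to 10. *EPHA7* in Endo turned from -1.31 to 2.06 without mural and fibroblast marker nuclei and to 0.23 without *LAMA2* nuclei, where the median over all genes went from 0.26 to 0.94 and 0.80. The 78 pairs of member and cell type fell to 50 at 1000 UMIs per nucleus, where 51 members could be tested, and were 76 to 78 otherwise. The 5 interactions became 18 at an adjusted p below 0.05, 14 by DESeq2 and 3 with RLE factors, with Endo nuclei without mural and fibroblast marker UMIs or with a *LAMA2* UMI, and with microglia without peripheral markers, and 4 to 7 otherwise (4 to 5 without 1 animal). These interactions in subsets of nuclei were added after seeing the data. Of the single values named, 304 kept their side of the limit between cohorts, 47 gained a call and 22 lost it, 373 kept and 12 lost it between cell types, and 37 kept and 16 lost it as interactions. Causes were not tested. Scaling by library size alone moved the median of all genes by -0.10 to -0.24 (log2) between types, and with it the share of higher among all called genes went from 74.9% to 57.7% in Astro, 67.8% to 57.4% in Endo, 67.5% to 49.9% in ExN and 64.3% to 47.6% in InN. No named member changed direction under either scaling. A median of 793 to 962 UMIs in 129 to 181 control microglia, Endo and OPC nuclei limits what can be seen there, where 23 of 54, 31 of 55 and 28 of 48 tested members had over 3 control UMIs.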

Other observations

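A further 5 guidance genes are listed in both tables by Ensembl identifier alone and were matched to symbols through a table of gene names, so the rule by symbol did not take them: *ROBO1* (ENSCJAG00000000145), *SEMA6A* (ENSCJAG00000016830), *SLIT3* (ENSCJAG00000015563), *EPHA2* (ENSCJAG00000008362) and *PLXND1* (ENSCJAG00000005429). *ROBO1*, a receptor of SLIT ligands, was at 1806, 1103 and 1237 CPM in OPC and 1253, 1119 and 1089 in Oligo of injured replicates 1, 2 and 3 and at 1059 and 868 in control. In Endo it was at 225, 177 and 229 CPM against 759 in control, a log2 fold change of -1.74 ± 0.22 (SE, edgeR adjusted p = 0.00153), in the same nuclei whose share with a *LAMA2* UMI differed between the cohorts. *SEMA6A* was at 56.8, 49.9 and 55.4 CPM in Oligo against 40.7 in control and was not called there. *PLXND1*, the receptor of *SEMA3E*, was listed at 0 UMIs in every cell type of all 3 injured libraries, while control ExN held 141 UMIs and the other control types 0 to 4. Whether both tables counted this gene alike was not tested, and no difference between cohorts is read from it.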
